A study of Mus musculus with 30 samples.

Results

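The comparison described here was between wild-type mouse hippocampus at postnatal days 18 and 20 (P18 and P20) and wild-type hippocampus at P15. Its 8 samples were chosen by genotype and age from the 30 samples of a study of Nf1, the gene mutated in neurofibromatosis type 1, and no measured value entered the choice. The later group held 2 pools at P18 and 2 pools at P20, and the earlier group held 4 pools at P15. All 12422 non-control probe sets of the Affymetrix MG-U74Av2 array were used. In the whole study hippocampal RNA of wild-type and Nf1 heterozygous littermates was measured at 6 ages between P10 and P32. The animals were male pups from matings of C57BL/6 mice with Nf1 heterozygotes, no treatment is named, brains were flash-frozen after dissection, the genotype was read from liver, and each pool joined the hippocampi of 2 pups of 1 genotype. Pools are called here by age and by the code of their titles (for example P18 1c). No source used here says what the number in that code means. Both P18 pools carry number 1, both P20 pools number 2, and the P15 pools 2 of each.

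In the hippocampus of the mouse, the third postnatal week is a time of myelination, in which oligodendrocytes wrap axons with a membrane rich in galactolipids and in a small set of structural proteins. Over the same period newly formed neurons stop extending axons, the embryonic types of cytoskeletal and adhesion proteins give way to adult ones, and excitatory synapses gain AMPA-type glutamate receptors. A whole-tissue RNA measurement holds all of these cells together.

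Among the genes that rose were 3 of the myelin sheath or its lipids, Cldn11, Ugt8a and Mobp, whose promoters from RefSeq (GRCm38.p6, 5′ to 3′ on the gene's strand, 250 bases before to 50 after the start used in the promoter table) are shown because these genes moved together. Capitals mark the letters CTTTGT or ACAAAG, 1 motif read on both strands, which is the core recognised by SOX-family factors such as the oligodendrocyte regulator Sox10.
Cldn11 at chr3:31149670-31149969 on the plus strand: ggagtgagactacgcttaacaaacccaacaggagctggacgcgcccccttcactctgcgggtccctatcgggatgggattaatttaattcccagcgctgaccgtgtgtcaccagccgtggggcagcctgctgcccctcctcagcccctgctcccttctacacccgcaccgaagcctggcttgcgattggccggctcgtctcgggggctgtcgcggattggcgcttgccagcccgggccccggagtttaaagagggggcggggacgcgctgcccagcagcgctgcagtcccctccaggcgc
Ugt8a at chr3:125938603-125938902 on the minus strand: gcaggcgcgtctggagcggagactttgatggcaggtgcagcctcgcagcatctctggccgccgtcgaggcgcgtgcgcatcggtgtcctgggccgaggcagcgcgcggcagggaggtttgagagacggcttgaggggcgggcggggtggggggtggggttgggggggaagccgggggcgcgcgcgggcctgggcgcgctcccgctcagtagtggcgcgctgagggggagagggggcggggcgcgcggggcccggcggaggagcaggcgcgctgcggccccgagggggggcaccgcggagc
Mobp at chr9:120149492-120149791 on the plus strand: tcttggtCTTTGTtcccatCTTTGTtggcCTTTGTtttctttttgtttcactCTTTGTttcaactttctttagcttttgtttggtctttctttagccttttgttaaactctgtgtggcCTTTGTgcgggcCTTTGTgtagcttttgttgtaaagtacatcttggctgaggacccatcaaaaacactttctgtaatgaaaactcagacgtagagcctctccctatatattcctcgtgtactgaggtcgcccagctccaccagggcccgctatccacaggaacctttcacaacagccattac
The Mobp window held 6 matches and the other windows held 0 and 0. Of the 11 genes of the myelin list with a promoter in the table, 5 held at least 1 match, and of all 32851 promoters of the same length 6147 did (18.7%). For Ugt8a that start lies inside the outer end of the gene record printed with its values. A match describes the letters only, and the searched motif overlapped no other motif because it was the only one searched.

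The 8 arrays were alike in overall brightness. Their median intensity was 53.2 to 58.1 in the P18 and P20 pools and 54.2 to 59.0 in the P15 pools. Over all probe sets the log2 values of a later pool and a P15 pool correlated between 0.953 and 0.968, and those of 2 P15 pools between 0.952 and 0.964. The pair at P18 and the pair at P20 correlated at 0.969 and 0.976, above every pair of a later pool and a P15 pool. The 3′ to 5′ log2 ratio of the Gapdh control, a sign of RNA integrity and labelling length, was -0.33 to -0.23 in the later pools and -0.26 to -0.12 in the P15 pools. That of Actb was 0.10 to 0.13 at P18, 0.34 to 0.37 at P20 and 0.26 to 0.36 at P15. Nf1 itself was dim, with intensities of 4.80 and 6.17 at P18 and 15.9 and 6.25 at P20, against 12.0, 4.10, 6.90 and 5.44 at P15, and the log2 difference of 0.17 (SE 0.69) did not pass the test.

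Between P15 and the later ages 123 of 12422 probe sets changed (0.99%), 75 of them higher (0.604%) and 48 lower (0.386%) in the P18 and P20 pools, by limma with Benjamini-Hochberg adjusted p below 0.05. The genes that rose included Ugt8a and Cldn11 of myelin, Btbd3 of dendrites and the chaperone Dnajb9, and those that fell included Sox11, Tubb3 and Crmp1 of young neurons and the proteoglycan gene Ptprz1. Changes were mostly small: 10 of the 75 exceeded 2-fold upward and 5 of the 48 exceeded it downward. In 115 of the 123 the 4 later pools lay entirely on one side of the 4 P15 pools, which over all probe sets was true of 486 above (3.91%) and 466 below (3.75%). The count rested on few pools: it was 11 without P20 2b, 21 without P20 2a, 45 without P18 1c and 74 without P15 2d, and with the Gapdh 3′ to 5′ ratio as a covariate it was 69. Called without any 1 of the 8 pools were 11 probe sets, 10 of them with a gene symbol: Cldn11, Ugt8a, Rnf13, Gria1, Btbd3, Dnajb9 and Nr1d2 upward, and Crmp1, Tubb3 and Ptprz1 downward.

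**Figure D1:**
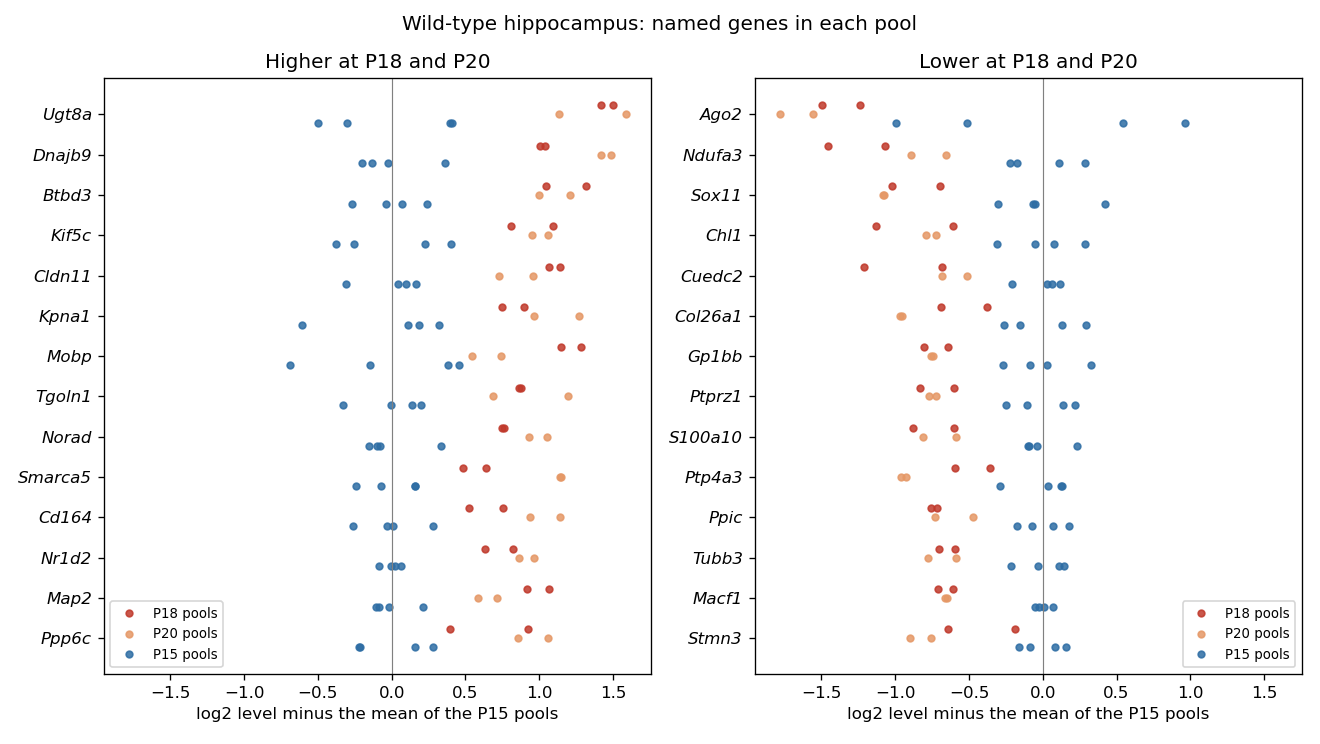
Log2 level of 28 named genes in each pool, given as the difference from the mean of the P15 pools (x axis, log2 units). Each row is a gene and each point a pool, red for P18, orange for P20 and blue for P15; in each of the 28 genes the 4 later pools lie on one side of the 4 P15 pools, which was a condition for being named.

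The largest rise among the named genes was that of Ugt8a, the enzyme that makes galactosylceramide, the main galactolipid of myelin (chr3:125865272-125938682). Ugt8a had intensities of 242 and 229 at P18 and 188 and 257 at P20, against 113, 114, 60.7 and 69.3 at P15. The later pools were all above the P15 pools, among which the number 2 pools were the lower. The fold was 2.66, a log2 difference of 1.41 (SE 0.20, limma adjusted p = 0.00765). In such whole-tissue samples, fewer cells of a type and less RNA per cell cannot be told apart, and the same holds of more cells and more RNA.

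Cldn11, the claudin that seals the layers of the myelin sheath, had intensities of 987 and 938 at P18 and 743 and 869.9 at P20, against 479.7, 502, 362 and 462 at P15. Every later pool exceeded every P15 pool, and the log2 difference was 0.97 (SE 0.10, limma adjusted p = 0.00113), a 1.96-fold rise. A second, much dimmer Cldn11 probe set differed by -0.07 and was not called (adjusted p = 0.968). Mobp, a small basic protein of compact myelin, had 2047 and 1870 at P18 and 1229 and 1407 at P20, against 1154, 1099, 522 and 761 at P15 on its named probe set. The P18 pools were the highest, and the 2 ages did not overlap with P15. Its log2 difference was 0.93 (SE 0.19, limma adjusted p = 0.034), and the call was lost when P18 1c (0.81), P18 1d (0.86), P20 2a (1.06), P20 2b (0.99) or P15 2d (0.88) was left out. On a second, brighter Mobp probe set the difference was 1.01 and not called (adjusted p = 0.219). It had 1567 and 1401 at P18 and 1311 and 1538 at P20, against 1394, 1313, 355 and 415 at P15, so the number 1 P15 pools lay among the later ones.

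Of the 25 genes in the list of myelin proteins and lipids 14 were measured, and 4 of these rose and 0 fell, while over all genes, taking the brightest probe set of each, 39 of 8251 rose (0.473%) and 34 fell (0.412%). In 6 of the 14 the later pools lay above all P15 pools and in 1 below, against 3.82% and 3.66% of all genes. The median log2 difference of the list was 0.61, and over all genes -0.02. These values over all genes stand beside every list below as well, each taken by brightest probe set. Besides Ugt8a and Cldn11, the called members were Mbp, the major protein that compacts the sheath, with a log2 difference of 0.47 (SE 0.10, limma adjusted p = 0.0499), and Car2, the carbonic anhydrase of oligodendrocytes, with 0.32 (SE 0.07, adjusted p = 0.0361). Mbp was not called without P18 1c, P18 1d, P20 2a, P20 2b or P15 2d, with differences of 0.34 to 0.53 over the 8 omissions. A second Mbp probe set differed by 0.17 and was not called (limma adjusted p = 0.493). Car2 was not called without P18 1c, P18 1d, P20 2a, P20 2b, P15 1a, P15 2c or P15 2d, with differences of 0.28 to 0.35 over the 8 omissions. Mal, a lipid-raft protein of myelin, had the largest difference of the list, 1.5 (SE 0.36), and Mog, an outer-surface protein, had 1.02 (SE 0.34), neither called at adjusted p = 0.0608 and 0.172. In both of them the P15 pools differed much among themselves: Mal had 339.9, 388, 113 and 130.0, and Mog had 225, 258, 99.9 and 122, the number 1 pools being the higher.

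The same unevenness showed in the list as a whole. Its score, the mean log2 difference of the 14 genes from the P15 mean, was 0.68 and 0.65 in the P18 pools and 0.36 and 0.38 in the P20 pools, against 0.24, 0.30, -0.45 and -0.08 in the P15 pools. No later pool lay below a P15 pool, and within each title number the later pools lay above the P15 pools. Against the number 1 P15 pools alone, the P18 difference of Ugt8a was 1.06 and that of Cldn11 0.97. Against the number 2 P15 pools alone, the P20 difference of Ugt8a was 1.76 and that of Cldn11 0.97. Since both P18 pools carry number 1 and both P20 pools number 2, the later age and the title number cannot be told apart. Of 12 measured regulators of the oligodendrocyte lineage 1 rose and 0 fell, with a median of 0.08. That gene was Id4, an inhibitor of basic helix-loop-helix factors, with 353 and 365 at P18 and 314 and 369 at P20, against 244, 219, 243 and 304 at P15 (log2 difference 0.48, SE 0.10, limma adjusted p = 0.042). Id4 was not called without P18 1c, P18 1d, P20 2a, P20 2b, P15 1a, P15 1b or P15 2c, with differences of 0.42 to 0.57 over the 8 omissions. Sox10 had a log2 difference of 0.34 and Nkx6-2, another factor of myelinating cells, 1.20, and Pdgfra, the receptor that marks oligodendrocyte precursors, -0.38, none of them called.

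**Figure D2:**
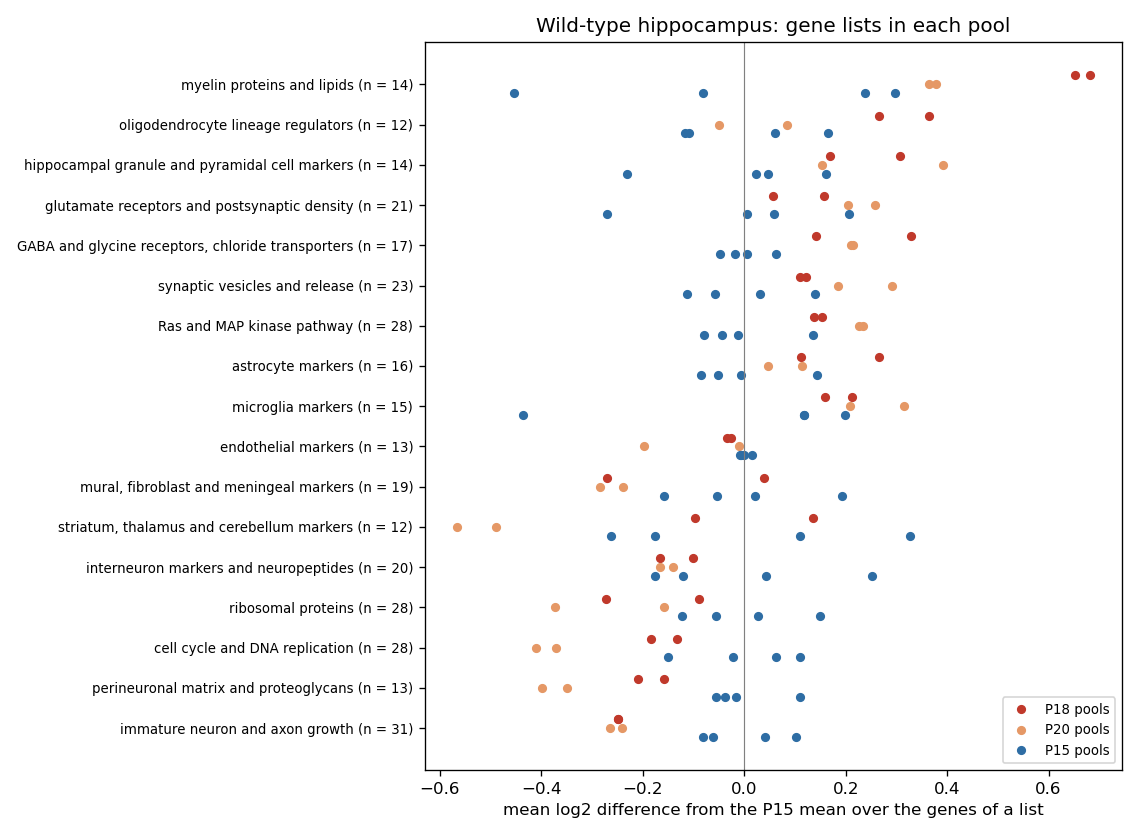
Mean log2 difference from the P15 mean over the genes of 17 lists (x axis, log2 units), 1 point per pool, red for P18, orange for P20 and blue for P15, with the number of measured genes beside each list. The myelin list reaches 0.68 in a P18 pool and the immature neuron list stays between -0.26 and -0.24 in the 4 later pools.

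Called changes among genes of young neurons were falls. Of 31 measured genes in the list of immature neuron and axon growth 0 rose and 3 fell, and in 11 the later pools lay below all P15 pools and in 0 above. Its median was -0.27, at P18 -0.30 and at P20 -0.25, and 27 of the 31 differences were negative. The score of the list was -0.26 to -0.24 in the later pools and -0.08 to 0.10 in the P15 pools, without overlap. Sox11, a transcription factor of newly formed neurons, had intensities of 179 and 143 at P18 and 137 and 136 at P20, against 235, 277, 387 and 279 at P15. The later values lay below all P15 values, and the log2 difference was -0.97 (SE 0.15, limma adjusted p = 0.00934), a 1.96-fold lower level that was not called without P20 2b (-0.93). Crmp1, which carries semaphorin signals to the growth cone, had 1078 and 1075 at P18 and 1063 and 1145 at P20, against 1471, 1489, 1595 and 1520 at P15. The 8 pools fell into 2 tight sets by age, with a log2 difference of -0.48 (SE 0.06, limma adjusted p = 0.00255). Mapt, the axonal microtubule protein tau, had 1490 and 1111 at P18 and 1556 and 1582 at P20, against 2417, 2260, 1907 and 1926 at P15, again without overlap (log2 difference -0.58, SE 0.10, limma adjusted p = 0.0193). Mapt was not called without P18 1d, P20 2a or P20 2b, with differences of -0.63 to -0.46 over the 8 omissions. The other Mapt probe sets differed by -0.41 and -0.22 and were not called (limma adjusted p = 0.0538 and 0.271).

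Tubb3, the neuronal beta-tubulin, had 703 and 652 at P18 and 619.8 and 708 at P20, against 1037, 914, 1176 and 1147 at P15. All later pools were lower, with a log2 difference of -0.67 (SE 0.09, limma adjusted p = 0.00457). This probe set belongs to the class whose probes can match other genes of a family, and a second, brighter Tubb3 probe set of the same class differed by -0.26 and was not called (adjusted p = 0.225), although its later pools also lay below all P15 pools. Chl1, an adhesion molecule of growing axons close to L1, was the called member among 35 measured genes of axon guidance and adhesion, a list with a median of -0.04. It had 117 and 169 at P18 and 156 and 149 at P20, against 313, 271, 248 and 208 at P15. The groups did not overlap and the log2 difference was -0.81 (SE 0.14, limma adjusted p = 0.0189), lost without P18 1c (-0.71), P20 2a (-0.84) or P20 2b (-0.82). Stmn2 and Stmn3, stathmin-family proteins that bind tubulin in growth cones, fell by 0.41 (SE 0.09, adjusted p = 0.0436) and 0.62 (SE 0.14, adjusted p = 0.0491) on the log2 scale, each on 1 of its probe sets, and on the brighter probe set the differences were -0.29 and -0.27, not called. The called Stmn3 probe set is also of the class whose probes can match other genes of a family. Stmn2 was not called without P18 1c, P18 1d, P20 2a, P20 2b, P15 1a, P15 2c or P15 2d, with differences of -0.47 to -0.34 over the 8 omissions. Stmn3 was not called without P18 1c, P20 2a, P20 2b, P15 1a, P15 1b, P15 2c or P15 2d, with differences of -0.77 to -0.53 over the 8 omissions.

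Other well-known genes of this stage did not pass the test. Dcx, a microtubule protein of migrating neurons, had 155 and 147 at P18 and 150.1 and 145 at P20, against 168, 170.4, 297 and 232 at P15 (log2 difference -0.50, limma adjusted p = 0.118). Its later pools were all lower, while the number 1 P15 pools were close to them. Fabp7, a fatty-acid binding protein of radial glia, and Nnat, a small protein of developing neurons, differed by -0.61 and -0.60 with adjusted p of 0.15 and 0.0679. Gap43 differed by -0.35 and its groups overlapped.

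Around these neurons, 1 of 13 measured genes of the perineuronal matrix and proteoglycans fell and 0 rose, with a list median of -0.30 and later pools below all P15 pools in 3. The called gene was Ptprz1, the receptor phosphatase whose secreted form is the proteoglycan phosphacan. Its intensities were 457 and 538 at P18 and 476 and 494 at P20, against 757, 685, 895 and 947 at P15, with no overlap and a log2 difference of -0.73 (SE 0.11, limma adjusted p = 0.00832). This probe set belongs to the class whose probes can match other genes of a family. Of the 2 other Ptprz1 probe sets 1, also of a class that can match other transcripts, differed by -0.67 and was not called. The other, which is of no such class, differed by 0.05 (limma adjusted p = 0.922). Has3, a hyaluronan synthase, and Ncan, the brain proteoglycan neurocan, differed by -0.84 and -0.34 without being called.

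Among 28 measured genes of the cell cycle and DNA replication 1 fell and 0 rose, 26 of the 28 differences were negative, and the median was -0.25. The score of this list was -0.41 to -0.13 in the later pools and -0.15 to 0.11 at P15, so the pools overlapped. Of the 28 genes 9 were among the dimmest 40% of probe sets. Ccnd2, a D-type cyclin, had 29.4 and 29.0 at P18 and 30.9 and 25.3 at P20, against 67.1, 67.6, 55.5 and 41.7 at P15. No later pool reached the lowest P15 pool, with a log2 difference of -1.0 (SE 0.19, limma adjusted p = 0.0234). Ccnd2 was not called without P18 1c, P20 2a, P20 2b, P15 1a or P15 1b, with differences of -1.15 to -0.91 over the 8 omissions. Top2a, a topoisomerase of dividing cells, differed by -1.06 and was dim, at 3.17 to 5.33 in the later pools and 3.79 to 21.4 at P15. Ribosomal protein genes had 24 of 28 differences below 0 and a median of -0.14, and 1 fell, Mrpl23 of the mitochondrial ribosome.

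Calls were rare among synaptic genes, as they were over all genes, where 0.473% rose and 0.412% fell by brightest probe set. Gria1, the GluA1 subunit of AMPA receptors, had 814 and 699.7 at P18 and 758 and 775 at P20, against 453, 489.6, 507 and 395 at P15 on 1 probe set. The later pools were all higher, with a log2 difference of 0.73 (SE 0.09, limma adjusted p = 0.00192). The brighter Gria1 probe set did not follow: it had 775 and 824 at P18 and 738 and 889.8 at P20, against 1442, 1384, 661 and 550.2 at P15, and differed by -0.20 (adjusted p = 0.792), with both number 1 P15 pools far above the number 2 pools. Of 21 measured genes of glutamate receptors and the postsynaptic density, taken by brightest probe set, 0 rose and 0 fell and the median was 0.11. Grin2b, the NMDA receptor subunit of young synapses, had 81.4 and 73.4 at P18 and 76.7 and 77.2 at P20, against 41.7, 44.2, 63.0 and 26.2 at P15. The groups were apart, but the difference of 0.88 (SE 0.24) was not called (limma adjusted p = 0.0977), and Grin2a, the subunit of mature synapses, differed by 0.40.

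In the synaptic vesicle list 1 of 23 measured genes rose and 0 fell, the median was 0.12, and in 4 the later pools lay above all P15 pools. The gene was Syt11, a synaptotagmin that does not bind calcium, with 890.1 and 892 at P18 and 774 and 862 at P20, against 632, 597, 613 and 534 at P15 (log2 difference 0.52, SE 0.08, limma adjusted p = 0.0113). Syt11 was not called without P20 2b, with differences of 0.47 to 0.57 over the 8 omissions. Genes of GABA and glycine receptors and chloride transporters had 0 calls in 17 and a median of 0.18, and the scores of their list, 0.14 to 0.33 in the later pools and -0.05 to 0.06 at P15, did not overlap. Slc12a5, the KCC2 chloride exporter that makes GABA inhibitory in mature neurons, had a difference of 0.54 with all later pools above P15 but was not called (limma adjusted p = 0.241). Gabra2 and the interneuron protein Pvalb differed by 0.16 and 0.24. Among voltage-gated channels 1 of 27 rose, Kcnab2, an auxiliary subunit of potassium channels, by 0.54 (SE 0.09, limma adjusted p = 0.0131). Kcnab2 was not called without P20 2a or P20 2b, with differences of 0.50 to 0.61 over the 8 omissions.

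Several genes of dendrites and of transport along microtubules rose. Btbd3, a protein that orients dendrites toward active inputs, had 431 and 357 at P18 and 346 and 400.2 at P20, against 144, 182, 204 and 168 at P15. The lowest later pool was far above the highest P15 pool, the fold was 2.21 and the log2 difference 1.14 (SE 0.13, limma adjusted p = 0.00113). Kif5c, a neuronal kinesin heavy chain, had 258 and 212 at P18 and 253 and 235 at P20, against 142, 160.4, 93.4 and 102 at P15. No pool overlapped, and the log2 difference was 0.98 (SE 0.20, limma adjusted p = 0.0324), lost without P18 1c (0.94), P20 2a (0.95), P20 2b (0.99), P15 2c (0.85) or P15 2d (0.89). Map2, the microtubule protein of dendrites, had 197 and 218 at P18 and 171 and 156 at P20, against 121, 103, 96.7 and 98.4 at P15, and the later pools were higher throughout (log2 difference 0.82, SE 0.15, limma adjusted p = 0.0193), a call lost without P18 1c (0.79), P18 1d (0.74), P20 2a (0.85) or P20 2b (0.90). In the list of tubulins and microtubule proteins 2 of 25 rose (Kif5c and Map2) and 1 fell (Mapt), with a median of -0.05. Trak2, an adaptor that couples mitochondria to kinesin, rose by 0.60 (SE 0.09, limma adjusted p = 0.0105). Trak2 was not called without P20 2a or P20 2b, with differences of 0.55 to 0.65 over the 8 omissions.

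Among the named genes, which had a mean log2 level of at least 6 in the higher group, the second largest rise was that of Dnajb9, a chaperone of the endoplasmic reticulum. Dimmer probe sets of Grb10, Lactb2, Yy1 and Csnk1d rose by 2.02, 2.01, 1.62 and 1.30, while every other probe set of these genes was not called. Dnajb9 had 97.7 and 99.98 at P18 and 136 and 130.2 at P20, against 42.2, 47.8, 62.3 and 44.4 at P15. The groups were apart with a 2.36-fold difference (log2 1.24, SE 0.15, limma adjusted p = 0.00243), and a second probe set rose by 0.84 (adjusted p = 0.0322). Hspa1b, an inducible heat shock protein, was the called member among 37 chaperone and stress genes, with a log2 difference of 0.80 (SE 0.15, adjusted p = 0.0213), and the median of that list was 0.05. Hspa1b was not called without P18 1c, P20 2a, P20 2b or P15 2d, with differences of 0.74 to 0.92 over the 8 omissions. Nr1d2, the circadian nuclear receptor REV-ERB beta, had 170.4 and 194 at P18 and 215 and 199.7 at P20, against 109, 104, 112 and 115 at P15, an even rise over pools (log2 difference 0.82, SE 0.09, limma adjusted p = 0.00113). No source used here gives the hour of dissection.

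The remaining named genes that rose were Kpna1, an importin alpha (log2 difference 0.97, limma adjusted p = 0.0171), Tgoln1, a protein of the trans-Golgi (0.90, 0.0312), Norad, a long noncoding RNA that binds Pumilio proteins (0.88, 0.0179), Smarca5, the ISWI chromatin remodeller (0.85, 0.00457), Cd164, a sialomucin (0.84, 0.0179), and Ppp6c, a protein phosphatase (0.81, 0.032). Of these, Tgoln1 and Ppp6c were measured by probe sets of classes that can match other transcripts. Brighter probe sets differed by 0.18 for Tgoln1, 0.17 for Norad and 0.01 for Ppp6c and were not called (limma adjusted p = 0.525, 0.377 and 0.986). Smarca5 was 153 and 137 at P18 and 218 and 217 at P20, against 109.6, 83.1, 110.0 and 93.7 at P15, so the P20 pools were the highest. Kpna1 was not called without P20 2a or P20 2b, with differences of 0.77 to 1.08 over the 8 omissions. Tgoln1 was not called without P18 1c, P18 1d, P20 2a, P20 2b, P15 1b or P15 2d, with differences of 0.79 to 0.98 over the 8 omissions. Norad was not called without P20 2a or P20 2b, with differences of 0.82 to 0.99 over the 8 omissions. Smarca5 was not called without P20 2b, with differences of 0.75 to 0.98 over the 8 omissions. Cd164 was not called without P20 2a or P20 2b, with differences of 0.74 to 0.94 over the 8 omissions. Ppp6c was not called without P18 1c, P20 2a, P20 2b, P15 2c or P15 2d, with differences of 0.72 to 0.95 over the 8 omissions.

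The largest fall among the named genes, which had a mean log2 level of at least 6 in the higher group, was that of Ago2, the Argonaute protein that carries small RNAs. The dimmer probe sets of Cd247 and Wnk1 fell by 2.10 and 1.78 on the log2 scale. Another Cd247 probe set differed by -0.66, and the other Wnk1 probe sets by -0.74 and, on a far brighter one, by 0.24. None of these other probe sets was called (limma adjusted p = 0.598, 0.355 and 0.101). Ago2 had 71.0 and 84.9 at P18 and 58.1 and 67.8 at P20, against 391, 291, 140.3 and 100.1 at P15. The later pools were all lower, but the number 1 P15 pools stood far above the number 2 pools. The log2 difference was -1.52 (SE 0.32, limma adjusted p = 0.0416), and it was lost when P18 1c (-1.53), P18 1d (-1.61), P20 2a (-1.43), P20 2b (-1.50), P15 1a (-1.20) or P15 1b (-1.34) was left out. Ndufa3, a subunit of respiratory complex I, had a difference of -1.02 (SE 0.21, limma adjusted p = 0.034) on 1 probe set and -0.03 on a far brighter one (adjusted p = 0.902). Both Ndufa3 probe sets belong to the class whose probes can match other genes of a family. Ndufa3 was not called without P18 1c, P18 1d, P20 2a, P20 2b, P15 1b or P15 2d, with differences of -1.14 to -0.87 over the 8 omissions.

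S100a10, the annexin A2 partner p11, had 154 and 186 at P18 and 188 and 161 at P20, against 332, 265, 274 and 263 at P15. The P15 pools were all higher (log2 difference -0.72, SE 0.11, limma adjusted p = 0.00951), and the call was lost without P20 2b (-0.69). Macf1, a giant protein that links microtubules and actin, had 643 and 689 at P18 and 670.5 and 662 at P20, against 1013, 1033, 1056 and 1101 at P15. Its pools were even within each age (log2 difference -0.66, SE 0.14, limma adjusted p = 0.0384), but no call remained when any 1 pool was left out, with differences of -0.67 to -0.63. The other named genes that fell were Cuedc2 (-0.77), Col26a1, a collagen (-0.75), Gp1bb, a platelet glycoprotein subunit (-0.74), Ptp4a3, a phosphatase (-0.71), and Ppic, the cyclophilin C (-0.67), with limma adjusted p between 0.0127 and 0.0436. Cuedc2 was not called without P18 1c, P18 1d, P20 2a, P20 2b, P15 1b, P15 2c or P15 2d, with differences of -0.86 to -0.63 over the 8 omissions. Col26a1 was not called without P18 1c, P20 2a, P20 2b, P15 1a, P15 2c or P15 2d, with differences of -0.87 to -0.65 over the 8 omissions. Gp1bb was not called without P18 1c, P18 1d, P20 2a, P20 2b, P15 1a, P15 2c or P15 2d, with differences of -0.83 to -0.63 over the 8 omissions. Ptp4a3 was not called without P20 2a or P20 2b, with differences of -0.83 to -0.63 over the 8 omissions. Ppic was not called without P18 1c, P18 1d, P20 2a, P20 2b, P15 2c or P15 2d, with differences of -0.73 to -0.61 over the 8 omissions.

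The Nf1 protein, neurofibromin, switches off Ras. Of 28 measured genes of the Ras and MAP kinase pathway 2 rose and 0 fell, against 0.473% and 0.412% of all genes, and the median was 0.13. Rasgrf1, a calcium-activated Ras exchange factor of neurons, had 583 and 638 at P18 and 845 and 874 at P20, against 518, 608, 457 and 324 at P15. Its P20 pools were the highest and a P18 pool lay within the P15 range (log2 difference 0.64, SE 0.14, limma adjusted p = 0.0493). Map2k4, a kinase upstream of JNK, rose by 0.33 (SE 0.07, adjusted p = 0.034). Evi2a, a gene nested in an intron of Nf1, had 146 and 127 at P18 and 103 and 122 at P20, against 91.7, 96.6, 58.1 and 59.2 at P15, and rose by 0.73 (SE 0.16, limma adjusted p = 0.0498). Rasgrf1 was not called without P18 1c, P18 1d, P20 2a, P20 2b, P15 1a or P15 2c, with differences of 0.47 to 0.77 over the 8 omissions. Map2k4 was not called without P18 1c, P18 1d, P20 2a, P20 2b, P15 1a, P15 1b or P15 2d, with differences of 0.30 to 0.36 over the 8 omissions. Evi2a was not called without P18 1c, P18 1d, P20 2a, P20 2b, P15 2c or P15 2d, with differences of 0.62 to 0.86 over the 8 omissions.

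Markers of other cells and tissues were set beside these changes. The 14 markers of hippocampal granule and pyramidal cells had 0 calls and a median of 0.29, and their summed intensity was 4386 to 5699 in the later pools and 3673 to 4794 at P15. Astrocyte genes had 1 fall in 16, Aqp4, the water channel of astrocyte endfeet, by 0.59 (SE 0.11, limma adjusted p = 0.0193), with a median of 0.16, and Gfap and Glul differed by -0.19 and 0.16. Microglial markers had 0 calls in 15 and a median of 0.16, and mural, fibroblast and meningeal markers 0 in 19 and -0.25. Endothelial markers had 1 rise in 13, Slc2a1, the glucose transporter of brain capillaries, by 0.55 (SE 0.10, limma adjusted p = 0.0193), against a list median of -0.09. Eno2, the neuronal enolase, was the other called member among 18 genes of glycolysis and lactate, by 0.33 (SE 0.06, limma adjusted p = 0.02), and that list had a median of 0.01. Aqp4 was not called without P20 2a or P20 2b, with differences of -0.71 to -0.45 over the 8 omissions. Slc2a1 was not called without P18 1c or P20 2b, with differences of 0.52 to 0.60 over the 8 omissions. Eno2 was not called without P18 1c, P18 1d, P20 2a, P20 2b or P15 2d, with differences of 0.30 to 0.37 over the 8 omissions.

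Markers of neighbouring brain regions were examined too. The 12 measured markers of striatum, thalamus and cerebellum had 0 calls and a median of -0.32, with summed intensities of 1458 to 2884 in the later pools and 1811 to 3914 at P15. Their score was -0.10 and 0.14 at P18 and -0.49 and -0.57 at P20, against -0.26, -0.18, 0.11 and 0.33 at P15, so the P20 pools were the lowest and the P18 pools lay within the P15 range. Ttr, the main product of the choroid plexus, had intensities between 528 and 1887 in the later pools and between 918 and 1452 at P15, and a difference of 0.04. The part of other tissue in the results was not tested. Lists of immediate early genes (22 measured), cholesterol synthesis (18), oxidative phosphorylation (47), proteasome (35), actins (31) and MHC and interferon genes (24) had 0 calls each, with medians between -0.09 and 0.07. Actb differed by -0.41 with all later pools lower, and was not called (limma adjusted p = 0.0564), and a second Actb probe set differed by 0.26 with overlapping pools (adjusted p = 0.64).

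P18 and P20 each set against P15 share the P15 pools, so they are given side by side only. P18 alone gave 31 calls (0.25%), 19 higher (0.153%) and 12 lower (0.0966%), and P20 alone gave 184 (1.48%), 89 higher (0.716%) and 95 lower (0.765%). Each of the 123 probe sets differed in the same direction at both ages, and 0 of them were called between P20 and P18. The calls were made on the mean of both ages, and in 115 of the 123 the later pools lay on one side of P15. That fixes the direction in those 115, so the shared direction is no test of agreement between the ages. Cldn11 differed by 1.10 at P18 and 0.84 at P20, Mobp by 1.22 and 0.64, Btbd3 by 1.18 and 1.11, Dnajb9 by 1.02 and 1.45, Sox11 by -0.86 and -1.08 and Tubb3 by -0.65 and -0.68. The median of the myelin list was 0.96 at P18 and 0.42 at P20.

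Set directly against P18, P20 had 21 called probe sets (0.169%), 10 higher (0.0805%) and 11 lower (0.0886%), with 2 pools in each group and the spread taken from all wild-type pools. Age and title number cannot be told apart in this comparison, because each of these ages carries its own number. Higher at P20 were Ncl, the nucleolar protein nucleolin, Ddx5, an RNA helicase, Cnbp, a nucleic-acid binding protein, and Pdia3, a disulfide isomerase, by 1.07, 0.88, 0.72 and 0.67 (limma adjusted p between 0.0288 and 0.0412). Ncl had 764 and 977 at P20 and 489.6 and 346 at P18, and the P15 pools, at 563 to 823, lay above the P18 pools and overlapped the P20 pools. Lower at P20 were the haemoglobin genes Hbb-b2, with a difference of -0.95 (limma adjusted p = 0.0412), and Hba-a1, with -0.72 (adjusted p = 0.0412). Hba-a1 had 1974 and 1881 at P20 and 3458 and 2917 at P18, while the P15 pools had 1915 to 2212, so the P18 pools stood apart. The summed intensity of the 5 blood markers was 2330 to 4525 in the later pools and 2391 to 2770 at P15. Crx, Cpn1 and Strn4 were also lower at P20, with log2 differences of -2.78, -2.77 and -1.68 (limma adjusted p between 0.0288 and 0.035), and were dim at P20.

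The same step in Nf1 heterozygotes was measured in 2 pools at P18 and 2 at P20 against 4 at P15, and 1234 probe sets were called in it (9.93%), 610 higher (4.91%) and 624 lower (5.02%). Its difference from the wild-type step was called in 222 probe sets (1.79%), 117 higher (0.942%) and 105 lower (0.845%), and in 108 (0.869%), 44 higher (0.354%) and 64 lower (0.515%), without the heterozygous P18 pools. That second comparison set heterozygous P20 against the wild-type mean of P18 and P20, so its ages are not matched and age can enter it. The Gapdh 3′ to 5′ log2 ratio of 1 of the heterozygous P18 pools, 0.48, was above that of every other array, and that of the other P18 pool, -0.05, was within their range. The heterozygous P20 pools had ratios of 0.17 and 0.003. Every heterozygous later pool thus lay above the wild-type P18 and P20 pools, at -0.33 to -0.23, also without heterozygous P18. The part of this ratio in the genotype differences was not tested. The heterozygous P18 and P20 pools all carry title number 1, and the heterozygous P15 pools 2 of each number. Both wild-type P20 pools carry number 2, so at P20 genotype and title number cannot be told apart. With and without the heterozygous P18 pools 87 calls were shared. Of the 123 wild-type calls, 25 also had a called genotype difference, negative for 16 of the higher probe sets and positive for 9 of the lower ones. This difference shares the wild-type pools with the calls, so it is given as a description. The median heterozygous step of the 75 higher probe sets was 0.07 and the median wild-type step 0.68, and for the 48 lower ones these were -0.21 and -0.57. Btbd3 differed by -0.09 in heterozygotes and 1.14 in wild type, and the genotype difference was -1.24 (limma adjusted p = 0.00556), or -1.06 without the heterozygous P18 pools (adjusted p = 0.0188). Sox11 was 0.82 in heterozygotes and -0.97 in wild type, a difference of 1.79 (limma adjusted p = 0.00364), or 1.53 without them (adjusted p = 0.0111).

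Nr1d2 and Tubb3 were called in the same direction in both genotypes. Nr1d2 rose by 0.61 in heterozygotes (limma adjusted p = 0.0022) and 0.82 in wild type, and Tubb3 fell by 0.73 in heterozygotes (adjusted p = 0.00652) and 0.67 in wild type. Cldn11 differed by 0.58 in heterozygotes (adjusted p = 0.0596) and 0.97 in wild type, and Ugt8a by 0.54 and 1.41, neither called in heterozygotes, with genotype differences of -0.39 and -0.87 that were not called. At P15, where the step began, heterozygous pools had mean intensities of 727 for Cldn11 and 133 for Ugt8a, and wild-type pools 452 and 89.0. The genes with the largest called genotype differences were Wnk1, Akap9, Xrn1 and Ago2, by 3.87, 3.55, 3.08 and 3.05, and downward Uhmk1, Actb, Fgf5 and Smcp, by -4.22, -3.36, -3.29 and -3.27, where the Actb value is from the second probe set and the first gave -2.45. From P18 and P20 to P28 and P32, wild-type pools moved the same way, by 3.29, 2.35, 2.34 and 2.28 for Wnk1, Akap9, Xrn1 and Ago2. For Uhmk1, Actb, Fgf5 and Smcp they moved by -2.87, -2.49, -1.01 and -0.41, Fgf5 and Smcp not called. Actb on the second probe set averaged 664 and 697 at wild-type P18 and P20, and 122 and 123 at wild-type P28 and P32. Its means at heterozygous P18 and P20 were 88.3 and 69.4, and the cause was not tested. Of the genes with the largest genotype differences, Wnk1 and Ago2 were among the wild-type calls. Xrn1 (3.02, limma adjusted p = 0.0561) and Smcp (-2.37, 0.103) were not called without the heterozygous P18 pools. These genes were chosen without an intensity limit, and those other than Ago2 and Actb were dim. Heterozygous P18 and P20 pools had 1.10 to 4.81 for Uhmk1, 1.62 to 8.49 for Fgf5 and 0.60 to 10.7 for Smcp. Wild-type P18 and P20 pools had 5.40 to 15.4 for Akap9, 6.47 to 29.6 for Xrn1 and 11.5 to 15.5 for Wnk1. So near the floor the sizes are uncertain.

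**Figure D3:**
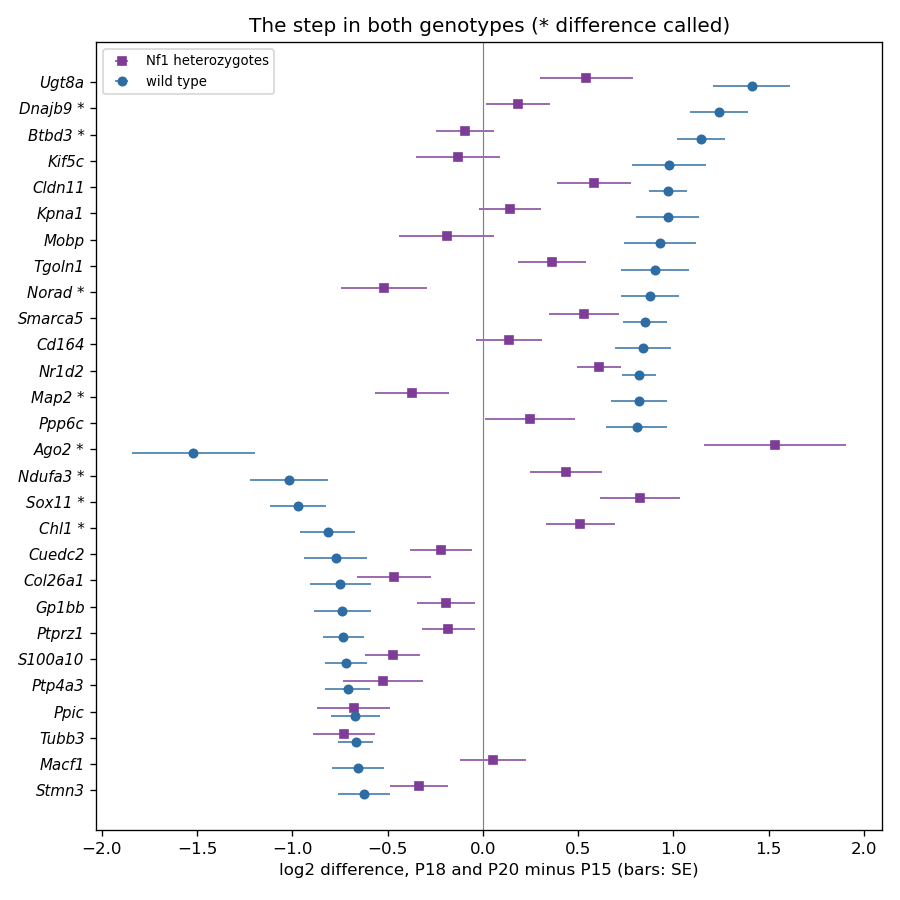
Log2 difference of P18 and P20 from P15 (x axis, bars of 1 SE) for the 28 named genes in Nf1 heterozygotes (purple squares) and wild type (blue circles), with an asterisk where the genotype difference was called. Sox11 lies at 0.82 in heterozygotes and -0.97 in wild type, while Tubb3 lies at -0.73 and -0.67.

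The steps before and after share pools with this one, which ties their values together, so they are given side by side. Wild-type P15 against P10 had 507 calls (4.08%), 288 higher (2.32%) and 219 lower (1.76%), and wild-type P28 and P32 against P18 and P20 had 2304 (18.5%), 1035 higher (8.33%) and 1269 lower (10.2%), with 3743 at an unadjusted p below 0.05 (30.1%). Of the 75 higher probe sets 26 had also been called higher at P15 than at P10, and 0 lower. Of the 48 lower ones 22 had been called lower, and 0 higher. After P20, 44 of the 75 were called lower and 5 higher, and 21 of the 48 were called higher and 8 lower.

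By age, the mean intensity of Cldn11 was 98.2 at P10, 452 at P15, 963 at P18, 806 at P20, 1075 at P28 and 1252 at P32, so it stayed high. Ugt8a averaged 22.96, 89.0, 236, 223, 101 and 104 at the same ages, with its highest values at P18 and P20. Btbd3 averaged 103, 174, 394, 373, 136 and 145, a peak at the same ages, and Gria1 on its called probe set averaged 399, 461, 757, 766, 479 and 485. Sox11 averaged 427, 294, 161, 137, 344 and 339.7, lowest at P18 and P20. Tubb3 averaged 1789, 1068, 677, 664, 578 and 545, each mean below the one before. From P18 on its pools of successive ages overlapped, so a fall at those steps is not shown. The probe sets of a gene did not always share such a course: Mobp averaged 886 at P28 and 823 at P32 on its named probe set and 1964 and 2193 on the brighter one, and the brighter Gria1 probe set averaged 1066 and 1216.

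**Figure D4:**
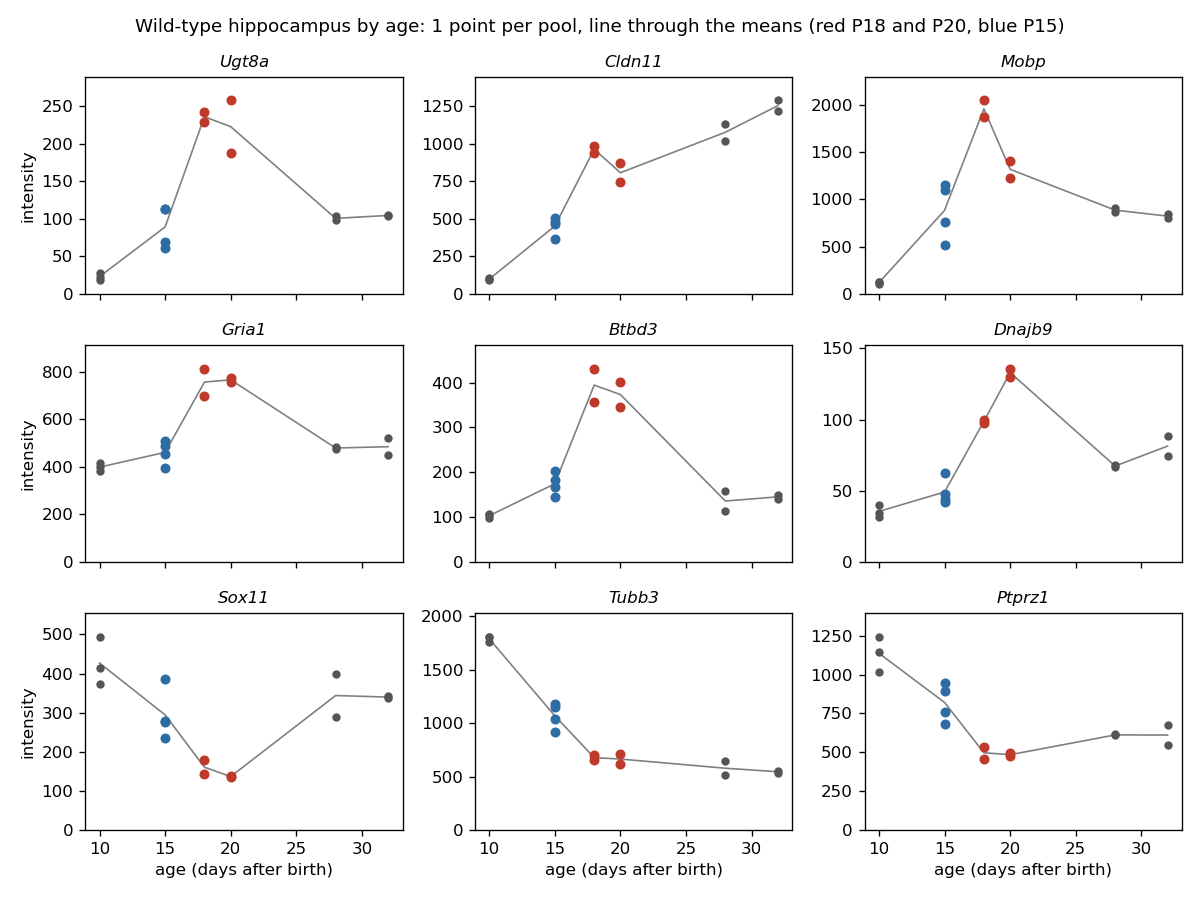
Intensity (y axis, linear, from 0) against age in days (x axis) for 9 genes in wild-type pools, 1 point per pool with a line through the means, blue for P15 and red for P18 and P20. Cldn11 stays high after P20, the Tubb3 mean stays below its P15 level, and Btbd3, Dnajb9, Gria1, Mobp and Ugt8a are highest at P18 or P20 on the probe sets plotted.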

How the data were processed

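Hippocampal RNA of 30 pools was measured on 30 single-colour arrays, and 15 wild-type arrays entered the main comparison. The authors deposited linear intensities scaled to 1 level: the mean of each array without 2% of values at each end was 150.083 to 150.09; no source used here names the software. Values under 1 (6256, 1.68%) were set to 1 and log2 was taken. No probe set was filtered: 66 controls were left out and 12422 tested. Of these, 10833 had 1 symbol in the platform annotation, 396 had several and 1193 none; 10817 matched the RefSeq gene table (GRCm38.p6) by Entrez identifier, and coordinates are those of genes, not probes.

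limma 3.58.1 in R 4.3.3 was fitted with 1 mean per age to 15 wild-type arrays, or per age and genotype to 30 for genotype differences, with an intensity trend; tests were two-sided, adjusted by Benjamini-Hochberg over all 12422 and called below 0.05. The code was tested on simulated data. Named genes were the 14 largest rises and 14 largest falls among called genes with a mean log2 of at least 6 in the higher group and pools that did not overlap, 2 to 4 members with the largest differences per described list, the 4 largest each way for P20 minus P18 and for the genotype difference, and a fixed set of markers; others were chosen after their values were seen. The 36 lists used the brightest probe set per gene. The members and lists were chosen with earlier results of these data known. Array number limits the precision, and p-values measure the spread between pools of 2 pups. The deviations of same-number pools correlated at -0.17 to 0.14. In the later group the number goes with age, so this check cannot decide whether the title number pairs samples, and the main fit used no pairing. No 2 arrays were duplicates.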

Additional observations from a re-analysis of the deposited data

Results flagged for a closer look

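The step in heterozygotes minus the step in wild type was called by limma for 11 of 46 genes checked, and over all probe sets for 222 of 12422 (1.79%). Most of the 46 were chosen for a large wild-type step, which enters this difference, so the 2 shares are not comparable. The values were -1.05 for Dnajb9 (adjusted p = 0.0255), -1.24 for Btbd3 (0.00556), -1.39 for Norad (0.0271), -1.19 for Map2 (0.0269), 3.05 for Ago2 (0.00538), 1.45 for Ndufa3 (0.00748), 1.79 for Sox11 (0.00364), 1.33 for Chl1 (0.00985), -2.45 for Actb on its first probe set (0.00652), 0.99 for Glul (0.0293) and -0.64 for Pvalb (0.042). Without the heterozygous P18 pools the values of Dnajb9 (-1.01), Map2 (-0.99), Glul (0.88) and Pvalb (-0.58) were no longer called. That comparison set heterozygous P20 against wild-type P18 and P20 together, so its ages are not matched. Hba-a1 was lower at P20 than at P18 by a log2 difference of -0.72 (limma adjusted p = 0.0412), where age and title number cannot be told apart.

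In 3 of 92 groups of 4 pools checked, 1 pool was far from the others by Dixon's ratio, and chance alone gives about 1 in 20 such groups. Norad was 538 in P15 1b, against 403, 383 and 397 in the other P15 pools (ratio 0.849). Sox11 was 179 in P18 1c, against 143, 137 and 136 in the other later pools (ratio 0.836). Ppic was 71.5 in P20 2b, against 58.8, 59.7 and 60.5 in the other later pools (ratio 0.855).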

How the results depend on the processing

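The main fit called 123 probe sets in the wild-type step. The counts that follow are all calls of each refit, not the part of the 123 that was kept. They were 205 after removing the dimmest 40%, 232 with array weights, 69 with the Gapdh ratio as a covariate, 58 with all 30 samples and 33 without the variance trend. With only the 8 pools they were 22 and 21 (3 age means, or 2 groups), and leaving out 1 pool gave 11 to 115. P18 alone gave 31, P18 against the number 1 P15 pools 213, and P20 against the number 2 P15 pools 425. Adding 32 before log2 and quantile normalization gave 169 and 148. With the title number as a replicate block the count was 119 and 26 of the 28 named genes were called. The genotype difference had 108 calls without the heterozygous P18 pools, where the ages of the genotypes are not matched, against 222 with them. The cause of these changes was not tested. In 616 comparisons of the 28 named genes with 22 alternatives none changed sign, and 224 lost the call. Named genes had to have all later pools on one side of all P15 pools. That condition fixes the sign wherever pools are only left out, so the unchanged sign there is no test of robustness. Erdr1 differed by -3.44 for P18 against the number 1 P15 pools, and by 0.19 in the whole comparison. Of 396 list medians recomputed, 379 moved by less than the spread between pools and 17, in 11 lists, by more. Dim probe sets near the floor limit what can be measured of Nf1.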

Other observations

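Erdr1, a gene at the end of the X chromosome, had intensities of 94.4 and 62.0 in P18 pools 1c and 1d and 1274 and 1472 in P20 pools 2a and 2b, against 727 and 942 in P15 pools 1a and 1b and 93.0 and 102 in P15 pools 2c and 2d. Pools of the same age and title number were alike, and the age difference of 0.19 (SE 0.61) was not called by limma (adjusted p = 0.937). Ntrk2, the receptor of the neurotrophin BDNF, had 52.8 and 61.3 at P18 and 55.8 and 50.1 at P20, against 6.70, 5.79, 30.8 and 15.5 at P15, a difference of 2.23 (SE 0.55) that was not called (limma adjusted p = 0.0683) although the groups did not overlap.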
